A study of Mus musculus with 60 samples.

Results

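Heart muscle was compared with skin in 8 of the 60 whole-tissue RNA libraries of a mouse tissue atlas. The members are the 4 columns named for heart and the 4 columns named for skin in a combined count table that covers 15 tissues. The mice were females of the C57BL6/J strain, 6 weeks old, and were perfused through the heart with EDTA-containing saline before dissection, in both tissues alike. No allele and no agent separates heart from skin, so tissue is the comparison. The labels give 4 replicates of mice, and do not say which chambers of the heart or which body site and layers of skin were taken, nor whether heart and skin with the same replicate number came from 1 animal. Below, heart 1 to 4 and skin 1 to 4 are these replicates, and p-values measure the spread between these libraries. All libraries read the 3′ ends of transcripts, and a fall in a bulk tissue can mean fewer cells of a type or less RNA per cell, which cannot be told apart.

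Both tissues carried their defining marker. Myl3, the essential myosin light chain of ventricular and slow muscle, had 8987, 8611, 8496 and 8607 CPM in hearts 1 to 4, against 0, 0, 0 and 0.324 CPM in skins 1 to 4. CPM is counts per 1000000 of the scaled library total, with the scaling taken from these 8 libraries. The single skin read makes Myl3 123037 times higher in heart, with a 95% counting interval of 22082 to 4859741. Krt77, a keratin of the suprabasal epidermis in mice, had no read in any heart library, against 7313, 7813, 7622 and 7835 CPM in skins 1 to 4. It was at least 29171-fold lower in heart, where the bound sets heart at 3 reads over its 4 libraries. Intervals and bounds of this kind cover counting error only. For both markers the 2 tissues did not overlap, as in 65.2% of all genes tested below.

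Cardiac and skeletal muscle build the same contractile unit, the sarcomere, from different members of the same gene families, so that most myosins, troponins and calcium channels come as a cardiac and a skeletal version. Heart muscle works without pause and draws its energy mainly from fatty acids burnt in a dense mass of mitochondria. Skin is layered: keratinocytes divide in the basal layer, switch keratins as they move outward, and end as a cornified envelope sealed by lipids. Under it lie the dermis, hair follicles with sebaceous glands, fat and, in mice, a thin sheet of skeletal muscle, the panniculus carnosus.

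The promoters of 6 genes are shown because these genes carry the contrast: Myl3 and Actc1 as cardiac versions, Acta1 and Myh4 as skeletal versions found in skin, and Krt77 and Lor from the outer epidermis. The sequences are RefSeq's on GRCm38.p6, the assembly that mm10 names, and run from 250 bases before the annotated start to 50 bases after it, 5′ to 3′ on the gene's strand. Capitals mark the CArG box, the element read by serum response factor, and the letters TATAAA, both looked for on either strand.
Myl3: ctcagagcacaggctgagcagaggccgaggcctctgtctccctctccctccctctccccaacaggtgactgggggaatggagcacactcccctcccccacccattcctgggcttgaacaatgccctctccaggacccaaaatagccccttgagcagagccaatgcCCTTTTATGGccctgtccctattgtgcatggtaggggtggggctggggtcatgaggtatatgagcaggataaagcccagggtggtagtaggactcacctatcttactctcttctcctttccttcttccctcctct
Actc1: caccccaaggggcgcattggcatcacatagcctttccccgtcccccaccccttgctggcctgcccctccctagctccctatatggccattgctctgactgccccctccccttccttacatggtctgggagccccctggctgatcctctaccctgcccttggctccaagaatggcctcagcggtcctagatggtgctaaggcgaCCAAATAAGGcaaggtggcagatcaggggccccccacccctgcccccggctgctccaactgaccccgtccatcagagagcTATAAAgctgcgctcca
Acta1: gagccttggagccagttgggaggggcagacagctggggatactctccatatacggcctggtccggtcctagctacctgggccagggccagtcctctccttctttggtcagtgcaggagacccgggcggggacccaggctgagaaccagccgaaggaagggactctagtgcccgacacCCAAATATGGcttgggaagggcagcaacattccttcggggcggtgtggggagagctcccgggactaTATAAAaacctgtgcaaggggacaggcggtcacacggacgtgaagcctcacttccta
Myh4: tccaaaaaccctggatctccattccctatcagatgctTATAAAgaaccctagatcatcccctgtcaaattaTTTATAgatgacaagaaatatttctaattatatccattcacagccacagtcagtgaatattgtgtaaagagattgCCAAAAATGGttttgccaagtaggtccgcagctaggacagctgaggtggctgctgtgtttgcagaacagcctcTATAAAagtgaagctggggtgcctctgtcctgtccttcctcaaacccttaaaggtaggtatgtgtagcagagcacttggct
Krt77: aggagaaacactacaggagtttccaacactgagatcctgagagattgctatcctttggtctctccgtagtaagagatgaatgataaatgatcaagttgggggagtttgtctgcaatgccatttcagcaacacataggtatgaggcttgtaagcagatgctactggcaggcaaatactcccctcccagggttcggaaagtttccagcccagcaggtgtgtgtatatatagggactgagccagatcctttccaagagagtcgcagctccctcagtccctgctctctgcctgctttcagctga
Lor: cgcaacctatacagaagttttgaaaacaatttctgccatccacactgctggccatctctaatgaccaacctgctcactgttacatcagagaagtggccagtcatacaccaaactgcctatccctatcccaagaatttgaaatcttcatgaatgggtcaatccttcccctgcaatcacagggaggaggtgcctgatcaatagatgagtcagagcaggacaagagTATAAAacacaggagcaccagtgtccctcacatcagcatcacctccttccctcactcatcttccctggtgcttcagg
They lie at chr9:110763428-110763727 (plus strand, Myl3), chr2:114052826-114053125 (minus, Actc1), chr8:123894726-123895025 (minus, Acta1), chr11:67237562-67237861 (plus, Myh4), chr15:101869656-101869955 (minus, Krt77) and chr3:92083093-92083392 (minus, Lor). A CArG box stood 85 bases before the start in Myl3, 47 in Actc1, 73 in Acta1 and 104 in Myh4, counted to its first base. Counted likewise, TATAAA stood 7 bases before the start in Acta1, 27 in Lor, and 213 and 31 in Myh4. Myh4 held another on the opposite strand at 179. In Actc1 TATAAA stood 33 bases after the start. These distances are to the annotated start, and whether transcription begins there was not tested. Among the 27025 genes with a promoter in the RefSeq table, 488 (1.81%) held a CArG box and 4234 (15.7%) held TATAAA. A CArG box was found in 6 of the 22 cardiac sarcomere genes with a promoter (27.3%), 2 of 18 fast skeletal genes, 0 of 16 spinous and granular genes and 1 of 26 cornified envelope genes. TATAAA was found in 3 of the 22 cardiac sarcomere genes, 6 of 18 fast skeletal, 4 of 16 spinous and granular and 9 of 26 cornified envelope genes. These are matches of letters, picked for display after the matches and the expression values had been seen, and they show no binding.

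Heart libraries held 4260194 to 4827656 assigned reads and skin libraries 1953862 to 2701849. Reads of the mitochondrial rRNA genes were 39.6 ± 1.14% of heart counts and 9.82 ± 0.793% of skin counts (SD, n = 4 each). Nuclear protein-coding genes received 43.4 ± 0.823% of heart counts and 84.5 ± 0.988% of skin counts. Over reads outside the mitochondrial genome that share was 96.7% in heart and 96.4% in skin (exact permutation test, two-sided, p = 0.0857). For both shares over all reads the 4 hearts lay apart from the 4 skins (exact permutation test, two-sided, p = 0.0286, adjusted p = 0.0286 over 5 library measures), and 0.0286 is the smallest p that 4 against 4 allows. Of 12618 genes tested with edgeR's quasi-likelihood test, 5664 (44.9%) were called at an adjusted p under 0.05 and a change beyond 1 log2 step, 2527 higher in heart (20.0%) and 3137 lower (24.9%). In 8224 genes (65.2%) the 4 libraries of 1 tissue all lay above those of the other. The median log2 fold change over all tested genes was -0.11. Scaled to plain library totals, which hold the mitochondrial reads, that median was -1.46 and 940 genes were called higher and 8300 lower, so directions below are relative to the scaling that sets most genes near 0. Of the called genes named below, Bgn, Cxcl12, Mef2d, Nr4a1, Pygm and S100a9 had log2 fold changes just below 0 under plain library totals and were not called. In turn, 10 named genes not called here kept their sign and were called under that scaling. Among these, Cox6a1, Dcn, Dst, Hba-a1, Hba-a2, Hbb-bs, Irx3, Lyve1 and Pdgfra were called lower. Another 19 named genes, higher in heart here, kept their sign but were not called under plain library totals: Alb, Cs, Dct, Des, Dsg2, Eno3, Esrra, Gja1, Il15, Kitl, Lama2, Pecam1, Rsad2, Sln, Smpd1, Tcap, Ttn, Upk3b and Xirp2. A gene with few or no reads in 1 tissue passes the filter on low counts through the other tissue, which fixes its direction, so list counts below describe the genes that passed. Every list count is to be read beside these shares of all tested genes, 20.0% higher and 24.9% lower. Every mention of tissues that do not overlap is to be read beside the 65.2%. Log2 fold changes are heart over skin, ± SE, and means are ± SD over 4 libraries. The SE was worked back from the fold change and the F statistic of the quasi-likelihood test. Where 1 tissue has few reads, it can be smaller than the counting error alone.

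**Figure D1:**
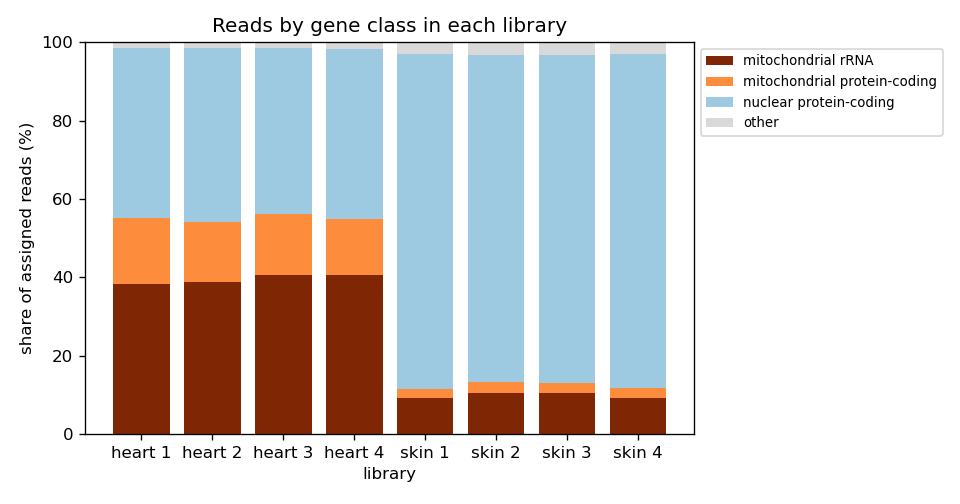
Share of assigned reads (percent) in each library, hearts 1 to 4 on the left and skins 1 to 4 on the right, split into mitochondrial rRNA, mitochondrial protein-coding, nuclear protein-coding and other genes. Mitochondrial rRNA took 38.4 to 40.6% in the 4 hearts and 9.09 to 10.6% in the 4 skins.

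Sarcomere genes of the cardiac type were higher in heart throughout. All 26 genes of a cardiac sarcomere list were called higher in heart, beside 20.0% of all tested genes, and their median log2 fold change was 4.12. Myh6, the fast alpha myosin heavy chain of the adult mouse heart, had 7943, 7920, 7834 and 8078 CPM in hearts 1 to 4, against no read in any skin library, and was at least 37526-fold higher in heart. Actc1, cardiac alpha actin, had 11364, 10946, 11074 and 10585 CPM in hearts 1 to 4, against 2.67, 2.28, 5.15 and 2.27 CPM in skins 1 to 4 (log2 fold change 11.72 ± 0.14, adjusted p = 3.75e-21). Tnni3, the cardiac troponin I, had 7598, 7789, 7257 and 7749 CPM in hearts 1 to 4, against 2.4, 0.651, 0.702 and 3.24 CPM in skins 1 to 4 (log2 fold change 12.10 ± 0.18, adjusted p = 2.73e-20). In these genes the lowest heart lay far above the highest skin, beside 65.2% of all tested genes without overlap in either direction. Myh7, the slow beta myosin heavy chain, had 135, 135, 116 and 110 CPM in hearts 1 to 4, against no read in any skin library. Mhrt, a noncoding RNA transcribed against Myh7, averaged 123 ± 9.88 CPM in heart with no read in skin. No source used here states the strand setting of the counting, so reads of Mhrt and Myh7 cannot be told apart.

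Some genes that both kinds of striated muscle use separated the tissues by less than the sarcomere list's median of 4.12. Other muscle genes with reads in every skin separated more than the 5 shown next. Myom2, Tpm1, Actn2 and Cox6a2 had log2 fold changes of 3.28 ± 0.12, 3.72 ± 0.08, 3.75 ± 0.13 and 4.82 ± 0.10. Ttn, the giant spring of the sarcomere, had 15809, 16116, 16029 and 17127 CPM in hearts 1 to 4, against 3476, 4073, 4207 and 4077 CPM in skins 1 to 4 (log2 fold change 2.04 ± 0.07, adjusted p = 3.67e-15). Des, the muscle intermediate filament, averaged 1210 ± 48.3 CPM in heart and 326 ± 48.5 CPM in skin (log2 fold change 1.89 ± 0.09, adjusted p = 4.49e-13). Xirp2, Tcap and Ldb3, which sit at the Z disc or the myotendinous and intercalated junctions, had log2 fold changes of 1.75 ± 0.09, 2.34 ± 0.11 and 2.42 ± 0.12. None of Ttn, Des, Xirp2, Tcap and Ldb3 had a skin library at or above the lowest heart, and 65.2% of all tested genes also showed no overlap. With plain library totals 22 of the 26 sarcomere genes stayed called higher and 4 were not called.

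Skin carried the fast skeletal version of the same machine. Of 24 fast fibre genes 21 could be tested, and 19 were lower in heart (24.9% of all tested genes were), with a median log2 fold change of -8.46, or -6.61 with genes lacking a heart read set at their bound. Myh4, the IIb myosin of the fastest fibres, had no read in any heart library, against 1699, 1911, 2074 and 2100 CPM in skins 1 to 4, and was at least 7439-fold lower in heart. Acta1, skeletal alpha actin, had 353, 206, 321 and 252 CPM in hearts 1 to 4, against 2991, 3775, 3661 and 4309 CPM in skins 1 to 4 (log2 fold change -3.70 ± 0.14, adjusted p = 2.32e-14). Heart thus held Acta1 reads in every library, and all 4 hearts lay below the lowest skin. Pvalb, the calcium buffer of fast fibres, averaged 1.67 ± 0.565 CPM in heart and 876 ± 85.1 CPM in skin (log2 fold change -9.01 ± 0.15, adjusted p = 1.89e-19). Myh1 and Myh2, the IIx and IIa myosins, averaged 270 ± 30.4 and 26.3 ± 9.09 CPM in skin with 4 and 0 reads in all hearts. Pygm and Eno3, muscle glycogen phosphorylase and muscle enolase, were placed in this list yet were higher in heart (log2 fold change 1.20 ± 0.09, adjusted p = 1.04e-09; log2 fold change 1.49 ± 0.09, adjusted p = 5.51e-11), and under plain library totals neither was called.

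Arranged as pairs, most cardiac or heart-side members and their skeletal partners went opposite ways. In 16 of 19 pairs the heart-side member was called higher in heart and the skeletal member lower. Over all tested genes 20.0% were higher and 24.9% lower. Not every heart-side member was scarce in skin. There Tpm1 averaged 968 ± 107 CPM beside 1114 ± 113 CPM for Tpm2, and Actn2 averaged 86.9 ± 21 CPM. Myom2 averaged 41.3 ± 8.73 CPM in skin, above its partner Myom3 at 20.5 ± 9.21 CPM. For myosin regulatory light chains, Myl2 had 13637, 12906, 12223 and 13084 CPM in hearts 1 to 4, against 0.267, 0, 0 and 0.324 CPM in skins 1 to 4, and its fast partner Mylpf had 1.34, 0.343, 0.686 and 0 CPM in hearts 1 to 4, against 903, 1117, 1208 and 1321 CPM in skins 1 to 4. For troponin T, Tnnt2 averaged 7503 ± 404 CPM in heart and 7.87 ± 2.34 CPM in skin, while Tnnt3 averaged 0.517 ± 0.327 CPM in heart and 1226 ± 125 CPM in skin. For troponin C, Tnnc1 averaged 3197 ± 89.9 CPM in heart and 0.229 ± 0.307 CPM in skin, while Tnnc2 had no read in heart and 3.06 ± 1.04 CPM in skin. Tnnc2 drew far fewer skin reads than Tnnt3, and why was not tested. In the other pairs the skeletal members, Scn4a, Jph1 and Cacna1s, were not called or not tested. Scn4a, the sodium channel of skeletal muscle, averaged 2.96 ± 1.36 CPM in heart and 2.87 ± 1.12 CPM in skin (log2 fold change 0.04 ± 0.39, adjusted p = 0.935), and Jph1, a junctophilin of skeletal triads, averaged 24 ± 3.17 CPM in heart and 20.8 ± 5.63 CPM in skin (log2 fold change 0.22 ± 0.18, adjusted p = 0.291). Cacna1s had 0 reads in heart and 13 in skin, below the filter.

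**Figure D2:**
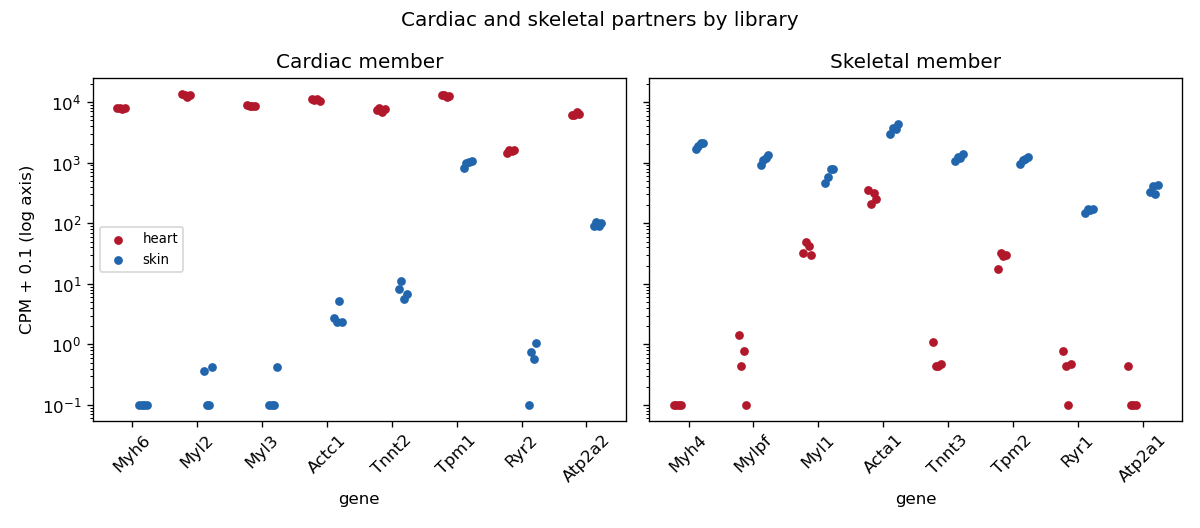
CPM in each library (log axis, drawn as CPM + 0.1 so that 0 can be shown) for 8 pairs of a cardiac gene (left panel) and its skeletal partner (right panel), with hearts and skins as separate points. Hearts lie above skins for every cardiac member shown and below them for every skeletal member, beside 65.2% of all tested genes without overlap. The cardiac members Tpm1 and Atp2a2 keep many skin reads, and the skeletal members Acta1, Myl1 and Tpm2 keep heart reads.

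Slow fibre genes went both ways, and few could be tested. Mybpc1, the slow skeletal myosin-binding protein C, averaged 0.709 ± 0.647 CPM in heart and 139 ± 24.5 CPM in skin (log2 fold change -7.56 ± 0.27, adjusted p = 7.4e-15), whereas Myh7b, a slow myosin also made in heart, averaged 54.7 ± 5.54 CPM in heart and 0.347 ± 0.279 CPM in skin (log2 fold change 7.13 ± 0.26, adjusted p = 1.09e-14). The median of the 4 tested slow fibre genes was 0.06, and it was -1.29 with plain library totals. Genes of the nerve-muscle synapse and of muscle precursors were rare in both tissues. Of 12, 3 were tested, and Myf6, a myogenic factor of mature fibres, was lower in heart (0.0939 ± 0.188 against 6.29 ± 1.45 CPM in skin). Chrna1, the muscle acetylcholine receptor alpha subunit, had 1 read in heart and 49 in skin. Myog and Pax7 had no heart read and 10 and 4 skin reads.

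Calcium handling and electrical excitation followed the sarcomere. Of 32 genes 31 were tested, 29 were higher in heart and none was lower, with a median log2 fold change of 4.58. Under plain library totals 28 were higher, 2 were lower and 1 was not called (median 3.22). Ryr2, the calcium release channel of cardiac muscle, had 1455, 1635, 1587 and 1620 CPM in hearts 1 to 4, against 0, 0.651, 0.468 and 0.972 CPM in skins 1 to 4 (log2 fold change 11.53 ± 0.17, adjusted p = 4.66e-20). Its skeletal counterpart Ryr1 averaged 0.347 ± 0.275 CPM in heart and 164 ± 13.1 CPM in skin (log2 fold change -8.72 ± 0.21, adjusted p = 2.84e-17). Pln, phospholamban, which brakes the calcium pump, had 1789, 1659, 1566 and 1578 CPM in hearts 1 to 4, against 0.534, 0.326, 0 and 0.972 CPM in skins 1 to 4 (log2 fold change 11.80 ± 0.18, adjusted p = 5.87e-20). Atp2a2, the pump itself, averaged 6341 ± 307 CPM in heart and 97.3 ± 7.13 CPM in skin (log2 fold change 6.03 ± 0.08, adjusted p = 1.42e-20). Every heart exceeded every skin in all 3 cardiac genes, beside 65.2% of all tested genes without overlap.

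Among ion channels, Cacna1c, the L-type calcium channel, averaged 118 ± 7.67 CPM in heart and 1.39 ± 0.528 CPM in skin. Kcnj3 and Kcnj5, which form the channel opened by the vagus nerve, averaged 62.7 ± 16.4 and 41.3 ± 3.47 CPM in heart with no skin read, and Chrm2, the muscarinic receptor upstream of them, averaged 118 ± 7.3 CPM in heart and 0.368 ± 0.42 CPM in skin (log2 fold change 8.24 ± 0.23, adjusted p = 1.34e-16). Kcnj2, the main inward rectifier of ventricular muscle, was not called (30.6 ± 7.86 CPM in heart and 30.5 ± 3.11 CPM in skin, log2 fold change 0.01 ± 0.16, adjusted p = 0.948). Scn4b, a sodium channel beta subunit, averaged 17.9 ± 2.78 CPM in heart and 32.2 ± 5.84 CPM in skin and was not called (log2 fold change -0.84 ± 0.16, adjusted p = 9.09e-05). Adrb1, the beta-1 adrenergic receptor, averaged 38.4 ± 5.23 CPM in heart and 2.87 ± 0.903 CPM in skin (log2 fold change 3.69 ± 0.20, adjusted p = 5.25e-12). Hcn4, the pacemaker channel, had 80 heart and 18 skin reads and was not tested.

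Cardiac transcription factors showed the same direction at lower read numbers. Of 21, 19 were tested and 16 were higher in heart, none was lower, and the median log2 fold change was 3.16. Under plain library totals 13 were higher, 2 were lower and 4 were not called (median 1.80). Gata4 had 85.9, 77.8, 77.2 and 69.9 CPM in hearts 1 to 4, against no read in any skin library, and was at least 368-fold higher in heart. Tbx20 averaged 89.8 ± 9.47 CPM in heart with no skin read, and Nkx2-5 averaged 91.9 ± 11.7 CPM with 1 skin read. Ankrd1, a stretch-responsive cardiac cofactor, averaged 1068 ± 176 CPM in heart and 0.311 ± 0.267 CPM in skin (log2 fold change 11.70 ± 0.23, adjusted p = 1.36e-18). Mef2c, Mef2a and Irx3 were not called, with log2 fold changes of 0.18 ± 0.09, 0.78 ± 0.07 and -0.11 ± 0.19. Mef2d, of the same muscle factor family, was called (log2 fold change 1.27 ± 0.15, adjusted p = 2.61e-07). The nuclear receptors that drive oxidative metabolism, Esrra, Esrrb, Esrrg and Ppara, had log2 fold changes of 2.22 ± 0.12, 6.69 ± 0.41, 5.34 ± 0.36 and 2.78 ± 0.23.

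Genes that burn fuel in mitochondria were higher in heart with few exceptions. All 23 tested genes of fatty acid oxidation were higher in heart (median 3.04), as were all 23 of the tricarboxylic acid cycle (median 3.05) and 33 of 34 nuclear subunits of the respiratory chain (median 3.13). Fabp3, the fatty acid carrier of heart muscle, had 1147, 1172, 1158 and 1134 CPM in hearts 1 to 4, against 3.74, 5.21, 3.74 and 10.4 CPM in skins 1 to 4 (log2 fold change 7.69 ± 0.17, adjusted p = 5.75e-18). Acadm, the medium-chain acyl-CoA dehydrogenase, averaged 725 ± 23 CPM in heart and 50.1 ± 7.23 CPM in skin (log2 fold change 3.86 ± 0.09, adjusted p = 2.95e-17). Idh2, mitochondrial isocitrate dehydrogenase, averaged 1425 ± 108 CPM in heart and 49.7 ± 3.23 CPM in skin (log2 fold change 4.84 ± 0.09, adjusted p = 5.18e-19). Atp5b, the ATP synthase beta subunit, averaged 3991 ± 109 CPM in heart and 428 ± 10.9 CPM in skin (log2 fold change 3.22 ± 0.06, adjusted p = 2.11e-18). Across the cycle the values ran from 2.25 in Cs, citrate synthase, to 4.84 in Idh2. Cox8a, the ubiquitous form of a cytochrome oxidase subunit, was the uncalled subunit (390 ± 27.2 CPM in heart and 243 ± 16.1 CPM in skin, log2 fold change 0.68 ± 0.08, adjusted p = 1.58e-07). With plain library totals 18, 22 and 30 genes of these lists stayed called higher and none was lower.

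Some respiratory chain parts come in a muscle form and a general form. Cox6a2, the muscle form, averaged 5153 ± 238 CPM in heart and 182 ± 26 CPM in skin (log2 fold change 4.82 ± 0.10, adjusted p = 1.78e-18), and Cox6a1, the general form, averaged 212 ± 8.63 CPM in heart and 216 ± 8.52 CPM in skin (log2 fold change -0.03 ± 0.07, adjusted p = 0.728). Cox7a1 had a log2 fold change of 5.64 ± 0.11 and Cox7a2 one of 2.63 ± 0.07. The adenine nucleotide carriers gave 4.06 ± 0.09 for the muscle form Slc25a4 and 0.77 ± 0.08 for Slc25a5. Mb, myoglobin, averaged 730 ± 50.7 CPM in heart and 7.65 ± 1.28 CPM in skin (log2 fold change 6.57 ± 0.11, adjusted p = 2.97e-19). Ckm, muscle creatine kinase, which skeletal muscle also makes, averaged 525 ± 60.5 CPM in heart and 409 ± 33.8 CPM in skin and was not called (log2 fold change 0.36 ± 0.09, adjusted p = 0.00103). Ckmt2, the mitochondrial creatine kinase of muscle, was (1653 ± 110 CPM in heart and 41.8 ± 9.57 CPM in skin, log2 fold change 5.32 ± 0.12, adjusted p = 1.65e-17). The difference between the 2 forms of a pair was not tested.

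The mitochondrial genome itself gave 8 testable protein-coding genes of 13, all higher in heart (median 3.86). mt-Cytb, cytochrome b, had 51825, 46710, 48504 and 44257 CPM in hearts 1 to 4, against 3046, 3740, 3514 and 3453 CPM in skins 1 to 4 (log2 fold change 3.80 ± 0.08, adjusted p = 3.58e-18). mt-Nd5, a complex I subunit, averaged 29156 ± 2667 CPM in heart and 1185 ± 109 CPM in skin (log2 fold change 4.62 ± 0.09, adjusted p = 1.29e-18). The other 5 genes, mt-Co2, mt-Co3, mt-Atp6, mt-Atp8 and mt-Nd4l, had 0 to 2 reads over all 8 libraries. Acadvl and Cpt1b, which muscle uses to burn long-chain fatty acids, had 71 and 3 heart reads against 4 and 0 skin reads, and neither was tested. Why these 7 genes drew so few reads was not tested.

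Glycolysis was mixed. Of 24 tested genes 15 were higher in heart (20.0% of all tested genes were), 4 were lower (24.9% were) and 5 were not called. The median of 1.43 was 0.07 under plain library totals, where 4 were higher and 6 lower. Ldhb, the lactate dehydrogenase subunit of heart, averaged 785 ± 87.4 CPM in heart and 23.7 ± 4.03 CPM in skin (log2 fold change 5.06 ± 0.12, adjusted p = 1.59e-17), and Ldha, the muscle subunit, averaged 411 ± 28.1 CPM in heart and 318 ± 26.8 CPM in skin (log2 fold change 0.37 ± 0.08, adjusted p = 0.000309). Slc2a4, the insulin-responsive glucose carrier, was higher in heart (log2 fold change 3.07 ± 0.10, adjusted p = 8.7e-16). Slc2a1, the general glucose carrier, was lower (log2 fold change -1.26 ± 0.16, adjusted p = 1e-06), as were Pfkfb3, Slc16a3 and Aldoc. Slc16a1, a lactate importer in heart, averaged 161 ± 5.79 CPM in heart and 13.3 ± 3.18 CPM in skin (log2 fold change 3.58 ± 0.12, adjusted p = 3.58e-15), while Slc16a3, a lactate exporter, averaged 2.24 ± 1.62 CPM in heart and 11.2 ± 2.75 CPM in skin (log2 fold change -2.31 ± 0.36, adjusted p = 1.3e-05).

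Every layer of the epidermis was lower in heart, and most of its genes had few or no reads there. Of basal keratinocyte genes 19 of 20 were lower (median -7.01, or -6.75 with bounds), of spinous and granular genes all 24 tested (median -11.20, or -9.90), and of cornified envelope genes all 24 tested (median -11.52, or -9.21), beside 24.9% of all tested genes. Krt5, the basal type II keratin, had no read in any heart library, against 2580, 2813, 2545 and 2549 CPM in skins 1 to 4, and its partner Krt14 averaged 0.0858 ± 0.172 CPM in heart and 1255 ± 9.37 CPM in skin with 1 heart read in all. Krt1 had no read in any heart library, against 993, 935, 1106 and 1035 CPM in skins 1 to 4. Krt10, the suprabasal partner of Krt1, had 7.38, 9.6, 6.86 and 9.77 CPM in hearts 1 to 4, against 5589, 6381, 6442 and 6604 CPM in skins 1 to 4 (log2 fold change -9.54 ± 0.12, adjusted p = 3.75e-21). The 4 hearts and 4 skins did not overlap in any of them, nor in 65.2% of all tested genes. Dst, a plakin made in many cell types, was the uncalled basal gene (559 ± 19.8 CPM in heart and 598 ± 80.3 CPM in skin, log2 fold change -0.10 ± 0.08, adjusted p = 0.305).

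In the outer epidermis, Lor, loricrin, the main protein of the cornified envelope, had no read in any heart library, against 3976, 4426, 4162 and 4617 CPM in skins 1 to 4, and was at least 16325-fold lower in heart. Krtdap, a secreted keratinocyte protein, was at least 16451-fold lower in heart. Flg2, a filaggrin relative, averaged 1232 ± 62.8 CPM in skin, and Flg, filaggrin, averaged 351 ± 44.7 CPM, with no heart read of either. Spink5, the inhibitor that holds back shedding proteases, averaged 1029 ± 92.7 CPM in skin and had no heart read. The proteases it inhibits, Klk5 and Klk7, averaged 135 ± 11.2 and 403 ± 25.5 CPM in skin, also with no heart read. Of the late envelope genes, 12 Lce1 genes averaged 5.47 to 2165 CPM in skin, and near-identical copies in this cluster can share or lose reads. Some Sprr and Lce3 genes that keratinocytes switch on under stress had few or no skin reads. Sprr1b had 21 reads, Lce3c 17, and Sprr3, Sprr2a1, Lce3a and Lce3b none. Close copies among these genes can lose reads too, so a lack of reads need not mean a lack of transcripts.

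Barrier lipid genes were mostly skin genes, with 17 of 19 tested lower in heart (median -7.21). Elovl4, which extends the very long fatty acids of barrier ceramides, had 0, 0, 0.343 and 0 CPM in hearts 1 to 4, against 380, 550, 395 and 351 CPM in skins 1 to 4, and was 4760 times lower in heart, with a 95% counting interval of 854 to 188029. Alox12b and Aloxe3, lipoxygenases of the cornified lipid envelope, averaged 60.8 ± 6.69 and 45.2 ± 6.94 CPM in skin with 0 and 1 heart reads. Abca12, the lipid loader of lamellar granules, averaged 2.79 ± 0.549 CPM in heart and 87.9 ± 3.19 CPM in skin (log2 fold change -4.96 ± 0.15, adjusted p = 4.67e-16). Smpd1, acid sphingomyelinase, a lysosomal enzyme of many cells, was higher in heart (152 ± 7.11 CPM in heart and 52.2 ± 3.42 CPM in skin, log2 fold change 1.55 ± 0.08, adjusted p = 4.32e-12).

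Hair follicle genes of the outer layers had reads in skin, and those of the shaft had few. Krt17 and Krt75, keratins of the outer and companion layers, averaged 709 ± 94.5 and 77.5 ± 5.76 CPM in skin with no heart read, and Krt79, of the follicle opening, averaged 401 ± 58 CPM with 4 heart reads. Keratins of the inner root sheath and the hair shaft, such as Krt25, Krt27, Krt71, Krt31 and Krt33a, had 3, 3, 7, 5 and 7 reads over the 4 skins, and Shh had none. Foxn1, a hair keratinocyte regulator, averaged 7.1 ± 1.63 CPM in skin. Of the 32 genes of the list 22 had no heart read and 11 could be tested, most of them through their skin reads, which fixed their direction. Lgr6, a stem cell receptor of the follicle, averaged 38.1 ± 4.07 CPM in heart and 23.2 ± 5.07 CPM in skin and was not called (log2 fold change 0.73 ± 0.14, adjusted p = 0.00018).

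Sebaceous and fat-making genes were lower in heart in 11 of 15 tested (median -5.02). Scd1, a stearoyl-CoA desaturase, had 25.5, 40.1, 19.2 and 30.1 CPM in hearts 1 to 4, against 1578, 902, 807 and 452 CPM in skins 1 to 4 (log2 fold change -5.02 ± 0.30, adjusted p = 2.51e-11). Awat1 and Awat2, wax ester synthases, averaged 18.4 ± 8.44 and 18.6 ± 7.57 CPM in skin with no heart read. Plin5, a lipid droplet coat of oxidative tissue, went the other way (87.9 ± 8 CPM in heart and 0.596 ± 0.415 CPM in skin, log2 fold change 7.03 ± 0.23, adjusted p = 1.41e-15). Pigment genes were nearly silent in skin: Tyr, Tyrp1 and Pmel had 1, 4 and 31 reads. Dct, a melanin enzyme, averaged 6.83 ± 1.57 CPM in heart and 2.43 ± 1.56 CPM in skin (log2 fold change 1.55 ± 0.38, adjusted p = 0.0012), and Mitf, a factor of pigment cells that other cells also make, averaged 65.6 ± 9.33 CPM in heart and 12.6 ± 2.65 CPM in skin (log2 fold change 2.36 ± 0.15, adjusted p = 4.05e-11). The melanocyte list had a median of 1.20 over 4 tested genes, and -0.16 with plain library totals.

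Transcription factors of the epidermis were lower in heart in 20 of 20 tested genes (median -7.42, or -6.48 with bounds). Trp63, the master regulator of stratified epithelium, had 0.671, 0.343, 0 and 0.751 CPM in hearts 1 to 4, against 140, 207, 205 and 206 CPM in skins 1 to 4 (log2 fold change -8.64 ± 0.26, adjusted p = 6.63e-16). Gata3 averaged 0.952 ± 0.3 CPM in heart and 433 ± 31.3 CPM in skin (log2 fold change -8.76 ± 0.15, adjusted p = 2.97e-19), Klf5 averaged 2.32 ± 1.24 CPM in heart and 311 ± 16.5 CPM in skin and Grhl3 averaged 32.2 ± 6.35 CPM in skin with no heart read. Klf4, a barrier factor also made in vessels, kept 74.6 ± 16.6 CPM in heart, against 502 ± 27.9 CPM in skin (log2 fold change -2.75 ± 0.12, adjusted p = 8.21e-14). The 39 Hox genes, which record position along the body axis, summed to 4.12 to 7.89 CPM in hearts and 181 to 203 CPM in skins. The 15 that could be tested passed the filter through their skin reads, which fixed their direction. Hoxc8 averaged 28.7 ± 7.06 CPM and Hoxc9 7.13 ± 3.03 CPM in skin, with no heart read of either. Hoxa5 averaged 0.443 ± 0.347 CPM in heart and 28.3 ± 2.88 CPM in skin (log2 fold change -5.90 ± 0.32, adjusted p = 4.76e-12). Hoxa13, Hoxc12, Hoxd12 and Hoxd13, from the ends of the clusters, had no read in any of the 8 libraries, and Hoxb4 kept 2.21 ± 1.44 CPM in heart.

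**Figure D3:**
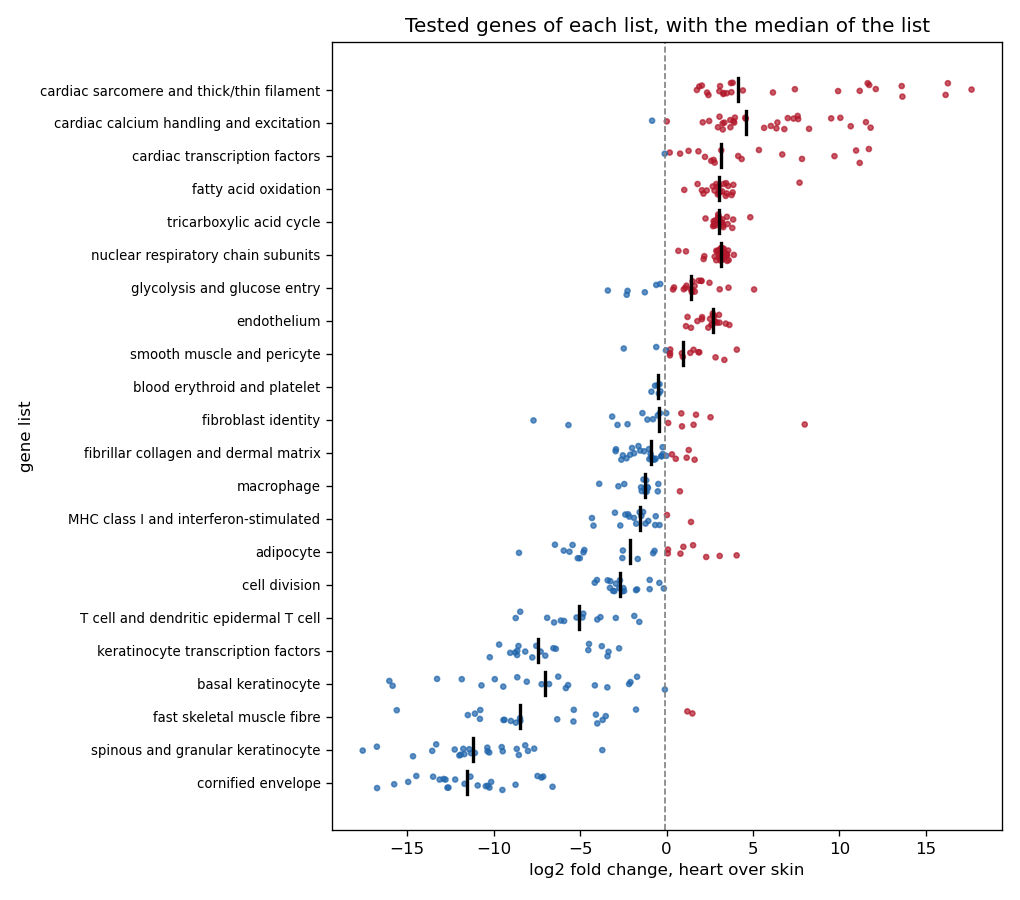
Log2 fold change, heart over skin, of every tested gene of 22 lists (1 point per gene, bar at the list's median), with the dashed line at the median of all tested genes, -0.11. Medians of the cardiac sarcomere, calcium and energy lists lie above the line and those of the epidermal lists far below it, while matrix, fibroblast and blood medians lie near it.

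Heart and skin are both held together by desmosomes, but built from different members. Of 16 tested desmosome genes 12 were lower in heart and 3 higher. Dsp and Jup, the plakin and plakoglobin shared by all desmosomes, averaged 658 ± 29.2 CPM in heart and 1592 ± 75.6 CPM in skin and 169 ± 5.31 CPM in heart and 481 ± 23.9 CPM in skin (log2 fold change -1.27 ± 0.07, adjusted p = 1.96e-12; log2 fold change -1.51 ± 0.07, adjusted p = 4.49e-13). Pkp2, the plakophilin of heart, had 134, 118, 147 and 138 CPM in hearts 1 to 4, against 4.81, 2.6, 3.98 and 1.62 CPM in skins 1 to 4 (log2 fold change 5.30 ± 0.17, adjusted p = 1e-15). Pkp1, the plakophilin of the outer epidermis, had no read in any heart library, against 444, 487, 467 and 486 CPM in skins 1 to 4. Dsg2 and Dsc2, the desmosomal cadherins of heart, were higher (2.11 ± 0.13 and 2.83 ± 0.20), while Dsg1a, Dsc1 and Dsc3 had 1, 0 and 0 heart reads against 485 ± 34.6, 84.6 ± 7.69 and 389 ± 32.3 CPM in skin. No library of heart reached a skin library for these 3 genes, beside 65.2% of all tested genes without overlap.

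Classical cadherins and connexins divided likewise. Cdh2, N-cadherin, averaged 143 ± 13.2 CPM in heart and 0.908 ± 0.418 CPM in skin (log2 fold change 7.23 ± 0.18, adjusted p = 3.15e-17), and Cdh1, E-cadherin, averaged 0.519 ± 0.185 CPM in heart and 163 ± 8.01 CPM in skin (log2 fold change -8.18 ± 0.17, adjusted p = 3.92e-18). Gja1, connexin of the ventricle and also of epidermis, averaged 373 ± 57.3 CPM in heart and 91.7 ± 6 CPM in skin (log2 fold change 2.02 ± 0.10, adjusted p = 1.73e-12). Gjb5, an epidermal connexin, averaged 73 ± 1.74 CPM in skin with 4 heart reads. Of the 18 tested genes of this list 9 were higher and 6 lower, beside 20.0% and 24.9% of all tested genes. The median of 1.00 was -0.36 under plain library totals. For anchorage to laminin, Col17a1 and Itgb4 of the hemidesmosome were lower in heart (0.0858 ± 0.172 CPM in heart and 467 ± 16.4 CPM in skin; 2.26 ± 1.36 CPM in heart and 131 ± 12.3 CPM in skin). Itga7, Lama2 and the sarcoglycan Sgca, which tie muscle to its basement membrane, were higher, with log2 fold changes of 3.03 ± 0.14, 1.69 ± 0.15 and 3.18 ± 0.15. This list counted 15 higher and 7 lower of 25, beside 20.0% and 24.9% of all tested genes. Its median of 1.28 was -0.08 under plain library totals.

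Dermal matrix genes were mixed under the scaling used here. Of 30 genes 13 were lower in heart (24.9% of all tested genes were), 3 were higher (20.0% were) and 14 were not called, with a median of -0.88. Under plain library totals 26 were lower, none was higher and 4 were not called, with a median of -2.24. Col1a1, the main fibrillar collagen, had 88.9, 91.9, 127 and 104 CPM in hearts 1 to 4, against 536, 507, 771 and 723 CPM in skins 1 to 4 (log2 fold change -2.62 ± 0.14, adjusted p = 2.34e-12). Col3a1 averaged 142 ± 30.6 CPM in heart and 617 ± 173 CPM in skin (log2 fold change -2.11 ± 0.17, adjusted p = 1.65e-09). In both genes the tissues did not overlap, as in 65.2% of all tested genes. Dcn, decorin, averaged 663 ± 50.4 CPM in heart and 1123 ± 141 CPM in skin and was not called (log2 fold change -0.76 ± 0.09, adjusted p = 2.03e-07). Bgn, biglycan, was higher in heart (145 ± 24.1 CPM in heart and 64.7 ± 2.34 CPM in skin, log2 fold change 1.16 ± 0.11, adjusted p = 1.19e-08). Pdgfra, a receptor of fibroblasts in general, averaged 23.8 ± 4.19 CPM in heart and 24.1 ± 4.08 CPM in skin (log2 fold change -0.02 ± 0.16, adjusted p = 0.899), and the 4 hearts and 4 skins overlapped. Of 18 tested fibroblast genes 4 were higher in heart (20.0% of all tested genes were), 7 lower (24.9% were) and 7 not called (median -0.45). Under plain library totals 2 were higher, 12 lower and 4 not called. Some members did separate. Tbx15 and Twist2 were lower (-5.68 ± 0.40 and -3.15 ± 0.51), and Crabp1 had no heart read and 7.91 ± 4.28 CPM in skin. Tcf21 and Wt1 had 6 ± 2.28 and 9.87 ± 2.34 CPM in heart with no skin read.

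Adipocyte genes were mixed, with 12 of 22 lower in heart (24.9% of all tested genes were), 4 higher (20.0% were) and 6 not called (median -2.10). Under plain library totals 16 were lower, 2 higher and 4 not called (median -3.47). The list summed to 7766 to 8130 CPM in hearts and 4362 to 7206 CPM in skins. Adipoq, adiponectin, had 4.03, 2.4, 0.686 and 3.38 CPM in hearts 1 to 4, against 173, 89.5, 145 and 114 CPM in skins 1 to 4 (log2 fold change -5.62 ± 0.27, adjusted p = 7.53e-13). Lep, leptin, had no heart read, against 14.3 ± 2.76 CPM in skin. Fabp4, made by fat cells and by heart capillaries, averaged 693 ± 40 CPM in heart and 658 ± 184 CPM in skin and was not called (log2 fold change 0.07 ± 0.14, adjusted p = 0.656). Lpl, the lipase that frees fatty acids at the vessel wall and is made by heart muscle as well as fat, had 6023, 5982, 6154 and 6221 CPM in hearts 1 to 4, against 518, 241, 420 and 287 CPM in skins 1 to 4 (log2 fold change 4.05 ± 0.17, adjusted p = 9.45e-14).

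Endothelial genes were higher in heart in 20 of 20, beside 20.0% of all tested genes (median 2.66). Kdr, a VEGF receptor, had 178, 149, 152 and 136 CPM in hearts 1 to 4, against 18.7, 9.44, 12.2 and 8.42 CPM in skins 1 to 4 (log2 fold change 3.63 ± 0.16, adjusted p = 1.94e-13). Pecam1 averaged 103 ± 13.5 CPM in heart and 24.9 ± 4.43 CPM in skin (log2 fold change 2.05 ± 0.13, adjusted p = 3.41e-11) and Cdh5, VE-cadherin, averaged 86.4 ± 6.92 CPM in heart and 12.6 ± 0.774 CPM in skin (log2 fold change 2.77 ± 0.11, adjusted p = 5.16e-14). Of 14 heart capillary genes 9 were higher in heart, none was lower and 5 were not called (median 2.33). Under plain library totals 7 of them were higher, 5 lower and 2 not called. Gpihbp1, which docks Lpl on the vessel wall, averaged 82.1 ± 14.6 CPM in heart and 7.69 ± 0.686 CPM in skin. Aqp1 averaged 197 ± 43.3 CPM in heart and 37.9 ± 4.99 CPM in skin. Ly6c1 was not called (138 ± 16.4 CPM in heart and 147 ± 28.3 CPM in skin), nor was Fabp4, given above. Under plain library totals 14 of the 20 endothelial genes stayed called higher and 6 were not called. Lymphatic and venular genes were mixed: Prox1, a lymphatic factor also made by heart muscle, averaged 119 ± 15.5 CPM in heart and 2.27 ± 1.37 CPM in skin (log2 fold change 5.70 ± 0.21, adjusted p = 7.77e-15), Lyve1 was not called (-0.48 ± 0.25), and Ackr1, of venules, averaged 0.427 ± 0.432 CPM in heart and 15.8 ± 4.53 CPM in skin (log2 fold change -5.06 ± 0.44, adjusted p = 5.71e-09).

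Vessel wall genes were mixed. Of 15 tested smooth muscle and pericyte genes 7 were higher (20.0% of all tested genes were), 1 was lower (24.9% were) and 7 were not called. The median of 0.94 was -0.42 under plain library totals. Rgs5, Kcnj8 and Abcc9, of pericytes, were higher (4.06 ± 0.12, 2.83 ± 0.20 and 3.34 ± 0.09), while Myh11, smooth muscle myosin, averaged 28.4 ± 2.68 CPM in heart and 24.8 ± 5.18 CPM in skin (log2 fold change 0.19 ± 0.15, adjusted p = 0.266). Of 13 tested genes of Schwann cells and nerve 7 were lower in heart (24.9% of all tested genes were) and none was higher (median -1.03). Under plain library totals 12 were lower and 1 was not called (median -2.39). Mbp, a myelin protein, had 5.37, 1.37, 4.46 and 8.64 CPM in hearts 1 to 4, against 71.1, 54, 64.8 and 89.4 CPM in skins 1 to 4 (log2 fold change -3.82 ± 0.25, adjusted p = 7.47e-11). Scn7a, of unmyelinated Schwann cells and nerve, was not called (0.51 ± 0.20). Genes of epicardium and mesothelium went both ways. Of 10, 6 were tested, with 3 higher in heart, 2 lower and 1 not called. Beside this, 20.0% of all tested genes were higher and 24.9% lower. Krt19, among the lower, was not called with DESeq2 (-1.44), limma-voom (-1.04) or the fit on all 60 libraries (-1.45). Without skin 1 or skin 3 it had -1.13 and -1.17 and was not called. The members Msln, Upk3b and Wt1 averaged 10.5 ± 2.18, 23.1 ± 5.25 and 9.87 ± 2.34 CPM in heart, against 0.474 ± 0.591, 5.97 ± 0.897 and 0 CPM in skin.

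Immune genes, the subject of the atlas, were mostly lower in heart. Of 15 macrophage genes tested 12 were lower in heart (24.9% of all tested genes were) and none higher (median -1.23). Without skin 1, 7 of the list were called lower. C1qa, a complement part made by tissue macrophages, had 55.7, 54.9, 59.7 and 48.1 CPM in hearts 1 to 4, against 178, 54.7, 116 and 178 CPM in skins 1 to 4 (log2 fold change -1.27 ± 0.24, adjusted p = 0.000118), and skin 2 (54.7 CPM) lay within the heart range. Ccr2, a receptor of monocyte-derived cells, averaged 1.59 ± 0.757 CPM in heart and 23.8 ± 10.2 CPM in skin (log2 fold change -3.90 ± 0.41, adjusted p = 7.7e-08). Langerhans cells, the antigen-presenting cells of epidermis, were marked by Cd207, langerin (0.359 ± 0.307 CPM in heart and 18.1 ± 1.58 CPM in skin, log2 fold change -5.55 ± 0.37, adjusted p = 8.93e-11). H2-Ab1 and Cd74, of MHC class II presentation, averaged 41.3 ± 9.01 CPM in heart and 358 ± 41.6 CPM in skin and 64.3 ± 9.36 CPM in heart and 467 ± 41.6 CPM in skin (-3.11 ± 0.12 and -2.86 ± 0.10). Il34, the keratinocyte cytokine on which Langerhans cells depend, averaged 2.02 ± 0.733 CPM in heart and 60.8 ± 6.75 CPM in skin (log2 fold change -4.90 ± 0.20, adjusted p = 4.22e-14).

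T cell genes were lower in heart in 14 of 14 tested (median -5.04, or -4.84 with bounds). Trdc, the constant chain of the gamma-delta T cell receptor used by dendritic epidermal T cells, had no read in any heart library, against 10.4, 17.3, 14 and 13.6 CPM in skins 1 to 4. Cd3g averaged 16.5 ± 2.46 CPM in skin with no heart read, and Cd3e had 1 heart read. Mast cell proteases Mcpt4 and Cma1 averaged 2.13 ± 0.973 CPM in heart and 15.1 ± 6.61 CPM in skin and 2.23 ± 1.55 CPM in heart and 14.3 ± 6.04 CPM in skin, while Mrgprb2, a receptor of connective tissue mast cells, averaged 10.4 ± 3.93 CPM in skin with no heart read. Gata2, a factor of mast cells and of endothelium, was higher in heart (18.6 ± 3.19 CPM in heart and 1.38 ± 0.422 CPM in skin, log2 fold change 3.75 ± 0.27, adjusted p = 3.82e-10). The 2 tested B cell genes were lower in heart, and 1 of them was still called without heart 2 (Ighm 6.65 ± 3.41 against 31.2 ± 9.26 CPM in skin). Neutrophil genes were low in both tissues, with S100a8 and S100a9 at 5.79 ± 3.35 and 7.65 ± 2.66 CPM in heart and 3.9 ± 0.765 and 3.4 ± 1.34 CPM in skin.

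MHC class I and interferon genes were lower in heart in 14 of 19 tested, beside 24.9% of all tested genes (median -1.56). B2m, the light chain of MHC class I, had 273, 232, 284 and 235 CPM in hearts 1 to 4, against 1278, 1258, 1358 and 1473 CPM in skins 1 to 4 (log2 fold change -2.39 ± 0.08, adjusted p = 4.89e-15), and Nlrc5, the transactivator of class I genes, averaged 2.87 ± 0.863 CPM in heart and 54.9 ± 4 CPM in skin (log2 fold change -4.23 ± 0.17, adjusted p = 6.35e-14). Rsad2, viperin, was higher in heart (19.1 ± 3.77 CPM in heart and 7.03 ± 2.75 CPM in skin, log2 fold change 1.41 ± 0.25, adjusted p = 4.46e-05). Reads of H2 genes can be shared among close copies. Alarmins and cytokines of epithelium were lower in heart in 12 of 16, beside 24.9% of all tested genes. Il18, Il33 and Il1rn had log2 fold changes of -5.20 ± 0.25, -3.16 ± 0.18 and -6.74 ± 0.33, and Il1a had no heart read and 8.92 ± 0.393 CPM in skin. Defb6, a beta-defensin, had no read in any heart library, against 230, 444, 300 and 212 CPM in skins 1 to 4. Cxcl12, Il15 and Kitl were higher in heart (1.17 ± 0.10, 2.09 ± 0.19 and 2.24 ± 0.13).

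Cell division genes were lower in heart in 15 of 19 tested, beside 24.9% of all tested genes (median -2.70). Mki67 averaged 3.43 ± 0.723 CPM in heart and 27.9 ± 3.9 CPM in skin (log2 fold change -3.02 ± 0.21, adjusted p = 1.47e-10), and Top2a averaged 2.01 ± 1.46 CPM in heart and 36.4 ± 4.06 CPM in skin (log2 fold change -4.16 ± 0.26, adjusted p = 3.35e-11). Red cell and platelet genes, which perfusion is meant to remove, did not pass the test: none of 6 was called (median -0.48), though 1 was called lower without heart 3 and all 6 were under plain library totals. Hbb-bs, adult beta globin, had 502, 212, 189 and 287 CPM in hearts 1 to 4, against 592, 434, 263 and 243 CPM in skins 1 to 4 (log2 fold change -0.36 ± 0.27, adjusted p = 0.229), and the tissues overlapped. Reads of Hba-a1 and Hba-a2, near-identical copies, can be split between them. Immediate early and heat shock genes, which respond to handling, were lower in heart in 11 of 19 (24.9% of all tested genes were). In 1 they were higher (20.0% were), Nr4a1 (log2 fold change 1.10 ± 0.29, adjusted p = 0.00239). Without heart 2, skin 1 or skin 3 Nr4a1 had log2 fold changes of 0.74, 0.94 and 0.99 and was not called. Fos had 13.1, 29.5, 6.52 and 2.63 CPM in hearts 1 to 4, against 54, 202, 98.5 and 68.4 CPM in skins 1 to 4 (log2 fold change -3.00 ± 0.44, adjusted p = 6.04e-06), and Hspa1b averaged 12.3 ± 9.93 CPM in heart and 193 ± 21.1 CPM in skin (log2 fold change -3.96 ± 0.29, adjusted p = 4.08e-10). Whether handling during dissection differed between heart and skin was not tested.

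Markers of other organs were scarce. Of 12 liver genes 5 were tested, with 3 higher in heart and 2 lower. The liver list summed to 67.9 to 193 CPM in hearts and 67.4 to 134 CPM in skins, which overlapped. Alb, albumin, made by liver, had 23.8, 15.8, 33.6 and 63.5 CPM in hearts 1 to 4, against 7.75, 7.49, 5.61 and 6.16 CPM in skins 1 to 4 (log2 fold change 2.33 ± 0.34, adjusted p = 5.21e-06), and heart 4 was the highest. Ahsg, another liver gene, had 1.68, 11, 15.4 and 19.2 CPM in hearts 1 to 4 and 4 reads over the skins. Scgb1a1, a secretory protein of airway epithelium, had 0, 0, 0 and 0.751 CPM in hearts 1 to 4, against 27.5, 28.6, 25 and 29.8 CPM in skins 1 to 4, and Sftpc, of alveolar cells, had 0 reads in heart and 35 in skin, while Scgb3a2 and Nkx2-1 had none in either tissue. Breast epithelium genes were low: Wfdc18 averaged 0.172 ± 0.343 CPM in heart and 15.7 ± 9.57 CPM in skin. The part of neighbouring tissue in these values was not tested.

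Libraries of 1 tissue differed among themselves in a few gene groups. Atrial genes were low in heart 1: Myl7, the atrial regulatory light chain, had 23.2, 867, 402 and 369 CPM in hearts 1 to 4, against 0, 0, 0.234 and 0.324 CPM in skins 1 to 4, and Myl4, the atrial essential light chain, had 28.2, 705, 374 and 283 CPM in hearts 1 to 4, against 4.54, 5.21, 5.61 and 3.89 CPM in skins 1 to 4. Sln, sarcolipin, had 12.1, 383, 186 and 159 CPM in hearts 1 to 4, against 34.7, 39.1, 69.2 and 41.1 CPM in skins 1 to 4 (log2 fold change 1.99 ± 0.51, adjusted p = 0.00187), and heart 1 lay below all 4 skins. Limma-voom gave Sln 1.24 and did not call it. Nppa, atrial natriuretic peptide, and Bmp10, an atrial growth factor, had 4.36, 45.3, 22.3 and 25.2 CPM and 0.336, 92.9, 35.4 and 16.5 CPM in hearts 1 to 4 with no skin read. Neither gene passed the low-count filter. Nppb, the ventricular natriuretic peptide, did not follow them (201, 266, 159 and 247 CPM), nor did Myl2 or Myh6.

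Among skins, luminal epithelial genes were higher in skins 1 and 3 than in skins 2 and 4. Krt19 had 23, 8.14, 21.3 and 1.3 CPM, Wfdc18 had 24.6, 11.4, 22.5 and 4.21 CPM and Areg, amphiregulin, had 14.2, 6.84, 11 and 4.86 CPM in skins 1 to 4. Lipid synthesis genes were highest in skin 1, with Fasn, fatty acid synthase, at 478, 259, 241 and 115 CPM and Scd1 as given above. Scd3 and Far2, of sebaceous glands, had 43.3, 109, 41.9 and 41.8 CPM and 32.1, 75.5, 29.5 and 35 CPM, and skin 2 was highest in both. Macrophage C1qa was lowest in skin 2, and Irf7, an interferon-response factor, had 14.7, 8.46, 15.4 and 55.1 CPM, with skin 4 highest. Without skin 4 the log2 fold change of Irf7 was -0.73 and it was not called. Myh4 spanned 1699 to 2100 CPM over the 4 skins. The part of the body site and of the layers sampled in these differences was not tested.

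**Figure D4:**
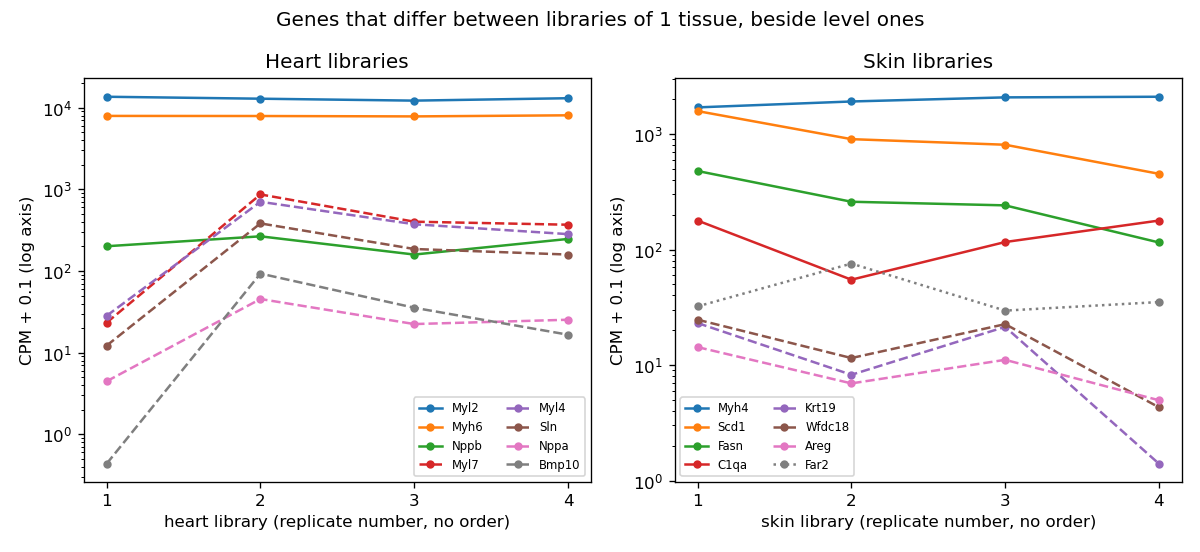
CPM by library (log axis, drawn as CPM + 0.1) of atrial and ventricular genes in hearts 1 to 4 (left) and of luminal, lipid, macrophage and muscle genes in skins 1 to 4 (right), 1 line per gene, which only joins its values. Atrial genes dip in heart 1 while Myl2 and Myh6 stay level, and luminal genes stand higher in skins 1 and 3.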

How the data were processed

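Counts of 3′-end reads per gene in heart and skin were taken from the deposited table of all 60 libraries. Per the submitters' processing notes, the authors used FastQC, STAR, featureCounts and mm10, and their versions and the strand setting are not stated in what was used here. Of 54532 genes, 54409 matched GENCODE M21 by ID.

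Counts of the 8 libraries were filtered with filterByExpr (minimum count 10, total 15), scaled by TMM and fitted by tissue with edgeR 4.0.16 (R 4.3.3) using its quasi-likelihood test, and p-values were adjusted by Benjamini-Hochberg across all 12618 genes that passed. Calls need an adjusted p under 0.05 and 1 log2 step. Normalisations, DESeq2 1.42.0, limma 3.58.1 and left-out libraries were alternatives. Bounds use 3 reads over 4 libraries, and counting intervals are 95%.

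Members and lists were chosen with earlier results of these data known. Named genes were those with the largest changes, the most counts, the pair members and the leading members of each list, and other list members were added after their values were seen. A few genes these rules name are not reported here.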

Additional observations from a re-analysis of the deposited data

Results flagged for a closer look

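Over 260 groups of 4 libraries, 9 held 1 library that stood apart from the other 3 by Dixon's criterion at 95%, which sets its gap to the nearest of them against the whole range. Chance alone flags about 1 in 20 such groups. Groups were taken for every gene named here with a mean of at least 20 CPM in the tissue and for the read shares.

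In hearts, mt-Nd5 had 33139 CPM in heart 1 against 27547 to 28147 CPM in the other 3, Dsg2 had 115 CPM in heart 3 against 123 to 125 CPM, and Tpm1 had 12311 CPM in heart 3 against 12808 to 12910 CPM.

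In skins, the sebaceous genes Scd3 and Far2 were high in skin 2, at 109 CPM against 41.8 to 43.3 CPM and at 75.5 CPM against 29.5 to 35 CPM. Skin 2 was also high in Krt5, at 2813 CPM against 2545 to 2580 CPM. Irf7 had 55.1 CPM in skin 4 against 8.46 to 15.4 CPM. Trp63 had 140 CPM in skin 1 against 205 to 207 CPM, and the 10 nuclear genes with most counts took 7.5% of nuclear reads in skin 1 against 8.25 to 8.39%.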

How the results depend on the processing

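Scaling by plain library totals moved the result most, to 9240 calls, 940 higher and 8300 lower, of which 4077 were called the same way as in the main result, and with calls 10.2% higher against 44.6%. Dropping the fold threshold gave 9011 calls, 4180 higher and 4831 lower. The nuclear protein-coding share taken over reads outside the mitochondrial genome differed by 0.3 percentage points, heart minus skin (exact permutation p = 0.0857), against -41.0 over all reads. Other scalings, tests and filters gave 4473 calls (a test against the fold threshold) to 7856 (no filter, 26248 genes), with both directions within 1.5 times. Leaving out 1 library gave 5575 to 6090 calls, 2441 to 2777 higher and 3132 to 3338 lower.

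Same-numbered hearts and skins correlated at 0.042, 0.076, 0.036 and 0.033 over 6447 genes, all under 0.1, so the numbers were not taken to pair the libraries. A replicate block gave 5657 calls, 5641 of them as in the main result. Each library correlated best with its own number, a hint from the data and not the design.

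Under plain library totals these log2 fold changes turned sign: Bgn -0.20, Ckm -1.0, Cox8a -0.68, Cxcl12 -0.19, Fabp4 -1.29, Jph1 -1.14, Kcnj2 -1.35, Ldha -0.99, Lgr6 -0.63, Mef2a -0.58, Mef2c -1.18, Mef2d -0.09, Myh11 -1.17, Nr4a1 -0.25, Pygm -0.16, S100a8 -0.75, S100a9 -0.21, Scn4a -1.31, Scn7a -0.86 and Slc25a5 -0.59. Uncalled genes near 0 also changed sign elsewhere. Kcnj2 had -0.02 with nuclear protein-coding genes alone, -0.01 with no filter and with limma-voom, and -0.13 and -0.04 without heart 1 and skin 3. With 1 library left out its lowest and highest values were -0.13 and 0.18. Fits on all 60 libraries gave 0.02 for Cox6a1 and Pdgfra. Cox6a1 had 0.01 without heart 1 or skin 1 (lowest -0.03), Fabp4 -0.07 without skin 2 and 0.23 without skin 1, Irx3 0.05 and 0.08 without heart 2 and skin 2, Pdgfra 0.02 to 0.07 without heart 3, heart 4, skin 1 or skin 4, and Scn4a -0.27 without heart 1, -0.20 without skin 1 and 0.29 without skin 3. The cause of these changes was not tested. Bounds and intervals rest on few reads.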
